A study of Mus musculus with 5 samples.

Results

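The S100 calcium-binding protein genes S100a14, S100a16, S100a13, S100a1, S100a4, S100a6, S100a8, S100a10 and S100a11 were examined in EpH4 cells, a mouse mammary epithelial line that immortalized spontaneously. These 9 genes belong to the 17 annotated S100 genes, of which 11 are among the 12934 genes analysed here. The 8 members other than S100a14 are family members listed with earlier results of these data known. S100a3 and S100a7a, also analysed, are given apart from them. S100a14 was chosen by its rise in sgMef2d cells. The values of S100a14 in that contrast are therefore given as a description, without a test. The cells stably expressed Cas9 from a lentivirus and carried either a control sgRNA (sgControl, 3 libraries) or an sgRNA against the transcription factor gene Mef2d (sgMef2d, 2 libraries), so Cas9 and the drug selection were common to both groups. According to the methods the stable cells were selected clones, and whether both sgMef2d libraries carry the same sgRNA is not stated. Poly(A)-selected RNA was sequenced, and the deposited gene counts summed to between 13601145 and 20498563 per library.

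S100 proteins are small proteins with a pair of EF-hand loops, helix-loop-helix folds that hold a calcium ion. Most of them form dimers, and calcium opens a surface that binds a target protein such as an annexin or a myosin. Several are also released from cells and act as ligands of receptors such as RAGE and the Toll-like receptors. In mammary and other epithelia, members of the family are known for their links with migration, membrane repair and differentiation.

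All 9 genes lie on chromosome 3 (build GRCm38). S100a1 (minus strand, 90511034 to 90514392) and S100a13 (plus strand, 90514435 to 90524581) stand head to head with 42 bases between them. They are followed by S100a14 (90526856 to 90528837), S100a16 (90537254 to 90543151), S100a4 (90603771 to 90606045), S100a6 (90612882 to 90624181) and S100a8 (90668978 to 90670035), all on the plus strand. S100a11 (93520488 to 93526287) and S100a10 (93555080 to 93564643) lie beyond a gap of 2850452 bases after S100a8, also on the plus strand. For each member the annotated coding sequence shared by most of its transcripts was taken, the longest on a tie. Identity between these sequences was between 34.7% and 59.5% over 36 pairs, with a median of 47.4%. In 50-base words, 47.4% of the S100a4 transcript sequence was shared with other genes, with the largest part in the overlapping gene Gm42674. For S100a11 the share was 41.1%, with the largest part in the pseudogene Gm12854. Reads of these members could therefore have been split in counting. The other 7 members shared 0 such words with another gene.

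Promoter sequences are shown for 5 windows, chosen because they hold the motif matches of the members that passed the test or the start shared by S100a1 and S100a13. They come from RefSeq (GRCm38.p6), run from 250 bases before to 50 bases after an annotated start, and are written 5′ to 3′ along the gene's strand. RefSeq windows were matched for 7 of the 9 members, and S100a14 and S100a10 had none in the table used here. Capitals mark matches to a TATA box (TATAAA), AP-1 (TGANTCA), GC box (GGGCGG) or E-box (CACGTG).
S100a4, chr3:90603520-90603819, plus strand: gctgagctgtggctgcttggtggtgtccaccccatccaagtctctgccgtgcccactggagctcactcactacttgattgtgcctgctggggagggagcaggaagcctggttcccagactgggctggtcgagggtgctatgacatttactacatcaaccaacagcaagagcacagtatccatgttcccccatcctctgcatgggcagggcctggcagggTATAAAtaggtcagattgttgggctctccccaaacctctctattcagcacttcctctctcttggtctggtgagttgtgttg
S100a8, chr3:90668821-90669120, plus strand: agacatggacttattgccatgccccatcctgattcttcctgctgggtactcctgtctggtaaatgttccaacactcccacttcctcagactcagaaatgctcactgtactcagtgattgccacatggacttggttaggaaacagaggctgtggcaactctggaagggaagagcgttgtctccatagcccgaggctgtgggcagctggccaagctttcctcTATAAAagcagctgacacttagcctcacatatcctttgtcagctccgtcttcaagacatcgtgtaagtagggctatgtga
S100a11, chr3:93520246-93520545, plus strand: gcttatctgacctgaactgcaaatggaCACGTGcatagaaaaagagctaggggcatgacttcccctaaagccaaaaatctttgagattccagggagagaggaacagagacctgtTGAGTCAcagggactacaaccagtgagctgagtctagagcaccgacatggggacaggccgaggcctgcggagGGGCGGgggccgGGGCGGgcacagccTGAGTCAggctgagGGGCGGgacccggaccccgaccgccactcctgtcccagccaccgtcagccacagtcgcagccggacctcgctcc
S100a16, second start, chr3:90540896-90541195, plus strand: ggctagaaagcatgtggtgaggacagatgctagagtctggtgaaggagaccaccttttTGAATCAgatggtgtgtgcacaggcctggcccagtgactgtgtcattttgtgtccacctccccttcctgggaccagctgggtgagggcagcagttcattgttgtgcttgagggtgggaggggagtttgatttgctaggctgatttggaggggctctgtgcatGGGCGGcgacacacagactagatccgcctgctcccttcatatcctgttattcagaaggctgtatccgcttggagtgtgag
S100a13, chr3:90514185-90514484, plus strand: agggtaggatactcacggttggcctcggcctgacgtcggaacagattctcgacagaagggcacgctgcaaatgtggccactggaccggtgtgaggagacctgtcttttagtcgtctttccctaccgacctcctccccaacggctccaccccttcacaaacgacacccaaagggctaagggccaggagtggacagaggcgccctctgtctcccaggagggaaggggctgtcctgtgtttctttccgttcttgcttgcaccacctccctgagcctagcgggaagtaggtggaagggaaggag

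The windows of S100a4 and S100a8 each held TATAAA, at positions -31 to -26 and -30 to -25 from the start, a sequence that was found in 13.6% of 32851 promoter windows of the same length. AP-1 matches stood in the S100a16 window at -192 to -186 and in the S100a11 window at -136 to -130 and -38 to -32, while 7.81% of all windows held one. S100a11 also held 3 GC boxes and S100a16 held 1, against 35.7% of all windows with at least one. CACGTG occurred in the windows of S100a11 and S100a6 and in 7.15% of all windows. The MEF2 motif, the sequence bound by the family of the targeted factor, was searched on both strands and was matched in 0 of the 8 S100 windows and 3.19% of all windows. Matches to the C/EBP motif (TTGCNNAA, 10.8% of all windows), the TEAD motif (GGAATG, 14.7%), the ISRE core (GAAANNGAAA, 3.44%) and the NF-kB motif (4.51%) were found in 0 of the 8. None of these motifs overlapped another in the S100 windows. The S100a13 window held 14 CpG sites and no match, and it overlapped the S100a1 window on the other strand by 204 bases; the median of all windows was 7 CpG sites.

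Levels are given in CPM, counts scaled to a common library total after TMM normalization. The targeted gene Mef2d, also on chromosome 3, measured 64.3, 76.9 and 71.5 CPM in the sgControl libraries and 64.2 and 65.8 CPM in the sgMef2d libraries, in the order of their replicate numbers, which is kept below. Its groups overlapped (log2 fold change -0.12, edgeR quasi-likelihood adjusted p = 0.400; -0.19 and 0.00550 without sgControl replicate 1). Gene counts do not show small insertions or deletions. In the paper, an immunoblot of sgMEF2D EpH4 cells showed no MEF2D protein, which these counts do not measure. Of the defining epithelial markers 6 of 6 were analysed, with summed levels of 2373 to 2484 CPM in sgControl and 2359 to 2443 CPM in sgMef2d; Cldn4 was higher in sgMef2d (log2 fold change 0.26, adjusted p = 0.0407) and Krt18 lower (-0.26, 0.0207). SgControl replicate 1 stood apart from replicates 2 and 3: the chi-square per degree of freedom of their counts was 10.6 and 13.6, against 1.99 between replicates 2 and 3 and 2.03 between the sgMef2d libraries. Between the groups it was 10.9 to 13.0. In replicate 1 all 9 members had their highest sgControl level, by 0.18 to 0.57 on the log2 scale over the mean of the others, as had 39.0% of all genes tested and 59.1% of the 1344 genes with exons no longer than those of the longest member. Values without that library are therefore given below where the call of a named S100 or partner gene, or the count of a list, changed.

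Of the 8 members other than S100a14, 4 were higher in sgMef2d cells and 0 were lower, and the other 4 did not pass the test. The members that rose were S100a8 (2.42-fold), S100a4 (1.43-fold), S100a16 (1.36-fold) and S100a11 (1.27-fold). Over the whole table, 992 of 12483 genes tested passed the adjusted threshold, which is 7.95%, with 3.67% higher and 4.28% lower. The members share a contrast with the rule that picked S100a14, so nothing is read from their count. The median log2 fold change was 0.27 over these 8 members and 0.35 over all 9, beside 0.00 over all genes tested. All 9 members passed the filter on low counts. Without sgControl replicate 1, 7 of the 8 passed, while over all genes 3639 of 12377 passed (29.4%). Without either sgMef2d library the count was 0 of 8 (4 at an unadjusted p below 0.05 each time), and without sgControl replicate 2 it was 2; with all libraries DESeq2 and limma-voom each called 4. Over all genes tested, 1.88% and 1.83% passed the adjusted threshold without sgMef2d replicates 1 and 2, and 14.1% and 12.4% an unadjusted p below 0.05. The adjusted shares were 4.84% and 6.51% without sgControl replicates 2 and 3, and the unadjusted shares 38.2%, 17.9% and 20.2% without sgControl replicates 1, 2 and 3.

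**Figure D1:**
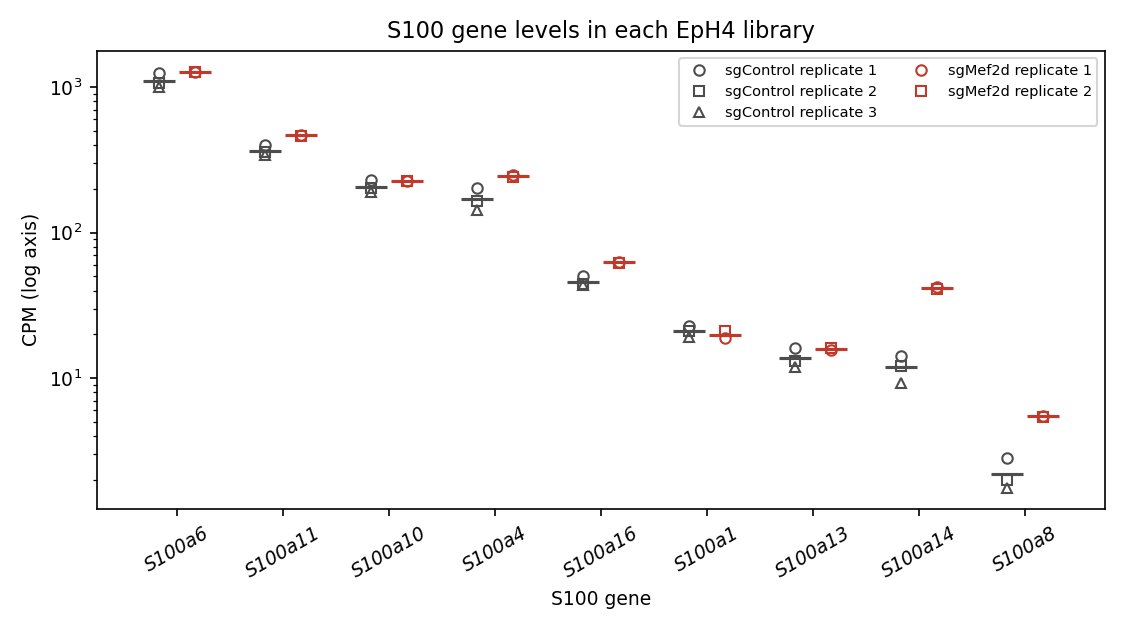
Level of each S100 gene in each library, in CPM on a log axis, with genes ordered by their mean in sgControl. Grey symbols are the 3 sgControl libraries, red symbols the 2 sgMef2d libraries, and bars the group means; the sgMef2d symbols of S100a14 (42.3 and 41.0 CPM) and S100a8 (5.53 and 5.45 CPM) stand above all sgControl symbols.

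S100a14 is an epithelial member that binds calcium weakly and is known to pair with S100a16. It measured 14.2, 12.1 and 9.31 CPM in the sgControl libraries (291, 170 and 127 counts) and 42.3 and 41.0 CPM in the sgMef2d libraries (718 and 609 counts). Both sgMef2d libraries stood above every sgControl library, and the 2 sgMef2d values were closer to each other than the 3 sgControl values. The sgControl mean was 11.9 ± 2.45 CPM (SD, n = 3). That of sgMef2d was 41.6 ± 0.880 CPM (SD, n = 2), 3.46-fold higher, or 1.79 on the log2 scale (SE 0.128, 95% interval 1.51 to 2.07). This interval makes no allowance for the choice of S100a14 by its rise, so it does not serve as a test. Under the 13 alternatives the log2 difference lay between 1.65 and 1.96. Its exons lie between those of S100a13 and S100a16, with 2274 bases to the former and 8416 bases to the latter.

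S100a16, its dimer partner, rose in sgMef2d cells. Its levels were 50.1, 44.2 and 43.5 CPM in sgControl and 62.8 and 62.2 CPM in sgMef2d, with no overlap between the groups. The difference was 1.36-fold (log2 fold change 0.44, SE 0.077, 95% interval 0.27 to 0.61, edgeR adjusted p = 0.00508). It did not pass without sgMef2d replicate 1 (adjusted p = 0.0890) or replicate 2 (0.0836), where the log2 values were 0.43 and 0.44.

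S100a8 forms calprotectin with S100a9 in myeloid cells and is induced in stressed epithelia. It was the least abundant member, at 2.83, 1.99 and 1.76 CPM in sgControl (58, 28 and 24 counts) and 5.53 and 5.45 CPM in sgMef2d (94 and 81 counts). The groups did not overlap, and the sgMef2d mean was 2.42-fold higher (log2 fold change 1.27, SE 0.214, 95% interval 0.80 to 1.74, edgeR adjusted p = 0.00421). The log2 value was 1.55 without sgControl replicate 1, and the call was lost without sgMef2d replicate 1 (adjusted p = 0.0655) or replicate 2 (0.0540). Its dimer partner S100a9 was not analysed here. Of the 10 myeloid markers fixed for this check, 3 (Lyz2, Cd68 and Csf1r) were analysed, and their summed level was 3.41 to 4.18 CPM in sgControl and 4.83 to 5.12 CPM in sgMef2d. None of the 3 was at 0 in a library and none passed the test. Lyz2 was low, with 4, 1 and 11 counts in sgControl and 15 and 15 in sgMef2d (log2 fold change 1.48). Cd68 and Csf1r had log2 fold changes of 0.48 and 0.15. The part of the 3 markers in the S100a8 result was not tested. In bulk RNA, more cells of a type and more RNA per cell cannot be told apart.

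S100a4 binds non-muscle myosin IIA and is widely used as a marker of motile and mesenchymal cells. Its levels were 203, 164 and 143 CPM in sgControl and 248 and 240.1 CPM in sgMef2d. All sgControl values lay below both sgMef2d values, although replicate 1 came nearest to them. The rise was 1.43-fold (log2 fold change 0.52, SE 0.111, 95% interval 0.27 to 0.76, edgeR adjusted p = 0.0158). Without sgControl replicate 1 the log2 value was 0.67, without sgControl replicate 2 the adjusted p was 0.0505, and without sgMef2d replicates 1 and 2 it was 0.156 and 0.133. The summed level of 6 analysed fibroblast markers was 643 to 767 CPM in sgControl and 608 to 649 CPM in sgMef2d, most of it Col1a2 and Col1a1. Of the 6, Col3a1 (1.85 to 5.03 CPM, 2.73-fold, adjusted p = 0.00142) and Dcn (1.38 to 3.39 CPM, 2.34-fold, 0.0203) rose with S100a4, and Col1a2 fell (425 to 291 CPM, adjusted p = 2.32e-04). None of the 6 was at 0, and their part in the S100a4 result was not tested.

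S100a6, or calcyclin, is a partner of the calcyclin-binding protein and was the most abundant member. It measured 1253, 1064 and 996 CPM in sgControl and 1278 and 1262 CPM in sgMef2d. The groups did not overlap, but replicate 1 of sgControl lay close to the sgMef2d libraries. The log2 fold change of 0.20 (SE 0.086, 95% interval 0.01 to 0.39) did not pass the test (edgeR adjusted p = 0.190). Without sgControl replicate 1 it was 0.30, and it passed (adjusted p = 2.12e-12).

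S100a11 and S100a10 are the members best known as annexin partners: S100a11 binds annexin A1, and S100a10, which does not need calcium, holds annexin A2 in a complex at the membrane. S100a11 measured 397, 357 and 343 CPM in sgControl and 470.2 and 459.8 CPM in sgMef2d, without overlap. It rose 1.27-fold (log2 fold change 0.35, SE 0.068, 95% interval 0.20 to 0.50, edgeR adjusted p = 0.00990). Its adjusted p was 0.0513 without sgControl replicate 2, and 0.159 and 0.129 without sgMef2d replicates 1 and 2. S100a10 measured 229, 203 and 190.0 CPM in sgControl and 226 and 225 CPM in sgMef2d. Here sgControl replicate 1 was the highest of all 5 libraries, and the log2 fold change of 0.12 (95% interval -0.04 to 0.29) did not pass (edgeR adjusted p = 0.371). Without that library it was 0.20 and passed (adjusted p = 5.43e-05).

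S100a13, which takes part in the release of FGF1 and IL1A, and S100a1, best known from heart and muscle where it acts on calcium channels and pumps, are transcribed from the shared start region printed above. S100a13 measured 16.0, 13.1 and 12.0 CPM in sgControl and 15.5 and 16.2 CPM in sgMef2d. The groups overlapped, with a log2 fold change of 0.19 (95% interval -0.09 to 0.47, edgeR adjusted p = 0.422; 0.33 and 0.0301 without sgControl replicate 1). S100a1 measured 23.0, 21.2 and 19.2 CPM in sgControl and 18.8 and 21.0 CPM in sgMef2d. It was the only member with a negative estimate, -0.10 on the log2 scale (95% interval -0.33 to 0.13, edgeR adjusted p = 0.629), and its groups overlapped. Whether the differences of S100a13 and S100a1 differ from each other was not tested.

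Of the 8 members other than S100a14, both sgMef2d libraries lay above all 3 sgControl libraries in 5 and below them in 0. Over all genes tested, this was so for 20.6% above and 20.5% below.

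**Figure D2:**
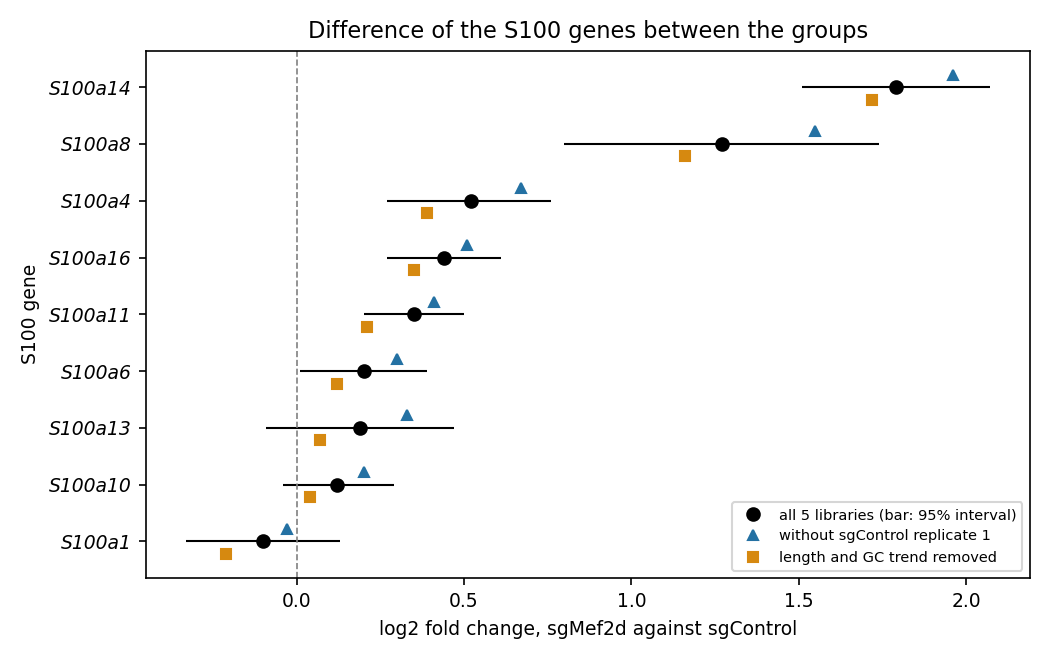
Log2 fold change of each S100 gene, sgMef2d against sgControl, with genes ordered by size. S100a14 was chosen by this difference, so its interval does not serve as a test. Black points are estimates from all 5 libraries with 95% intervals, blue triangles leave out sgControl replicate 1, and orange squares have the per-library length and GC trend taken out; S100a14 runs from 1.72 to 1.96 over these settings and S100a1 from -0.21 to -0.03.

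Removing each library's trend with length and GC content lowered all 9 estimates. With the trend removed S100a16 was 0.35 (edgeR adjusted p = 0.00227), S100a4 was 0.39 (0.0134), S100a8 was 1.16 (0.00293) and S100a11 was 0.21 (0.0321), all still past the threshold. Of the 1344 tested genes with exons as short as those of the members, 6.40% passed the test, 4.99% were higher, and the median log2 fold change was 0.08.

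The 9 members together took 0.176% to 0.219% of the counts in the sgControl libraries and 0.232% to 0.236% in the sgMef2d libraries. Their summed level was 2188, 1880.3 and 1758 CPM in sgControl and 2367 and 2333 CPM in sgMef2d. The sgControl mean was 1942 ± 222 CPM (SD, n = 3). In sgMef2d it was 21.0% higher, at 2350 ± 24.3 CPM (SD, n = 2). S100a6 made up 56.8% ± 0.358 of the S100 total in sgControl and 54.0% ± 0.0746 in sgMef2d. The shares of S100a11 (18.9% and 19.8%), S100a4 (8.70% and 10.4%) and S100a14 (0.606% and 1.77%) were larger in sgMef2d, while that of S100a10 was 10.7% in sgControl and 9.61% in sgMef2d.

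Levels of different genes were compared per kilobase of annotated exon. In sgControl the order was S100a6 (808 ± 97.2 CPM per kilobase), S100a11 (716 ± 55.4), S100a4 (291 ± 52.1), S100a10 (171 ± 16.4), S100a1 (30.5 ± 2.75), S100a16 (28.4 ± 2.22), S100a13 (19.2 ± 2.87), S100a14 (6.86 ± 1.42) and S100a8 (3.16 ± 0.812; SD, n = 3 each). The ranges of S100a6 and S100a11 overlapped, as did those of S100a1 and S100a16, and the other neighbours in the order were apart. This rested on the length used: per kilobase of the longest transcript S100a6 was at 1411 CPM (range 1273 to 1599.9) and S100a11 at 716 (671 to 778), apart, while S100a4 (287 to 407) and S100a10 (277 to 334) overlapped. In sgMef2d, S100a16 (38.6 CPM per kilobase) stood above S100a1 (28.7), and S100a14 (24.1) above S100a13 (22.1). The order of S100a1 and S100a16 in sgControl also changed with the transcript length, and with the median transcript length S100a14 moved from rank 7 to rank 6 in sgMef2d. Among all 12483 genes, per length, S100a6 was at percentile 99.8 in sgControl, S100a14 at 51.3 and S100a8 at 33.4.

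Of the other S100 genes, S100a3 and S100a7a were analysed, and both are lowly expressed. S100a3, a hair cuticle protein in skin, had 40, 33 and 33 counts in sgControl and 48 and 62 in sgMef2d (log2 fold change 0.65, 95% interval 0.12 to 1.18, edgeR adjusted p = 0.133), and its exons overlap those of other genes. S100a7a, the mouse relative of psoriasin, had 10, 8 and 6 counts in sgControl and 22 and 16 in sgMef2d (log2 fold change 1.25, 95% interval 0.41 to 2.09, adjusted p = 0.0733). Neither passed the test, though both sgMef2d libraries were above the sgControl libraries in each. Without sgControl replicate 1 the adjusted p of S100a7a was 0.0490 and that of S100a3 was 0.130. S100a2, S100a5, S100a9, S100b, S100g and S100z were not analysed here.

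**Figure D3:**
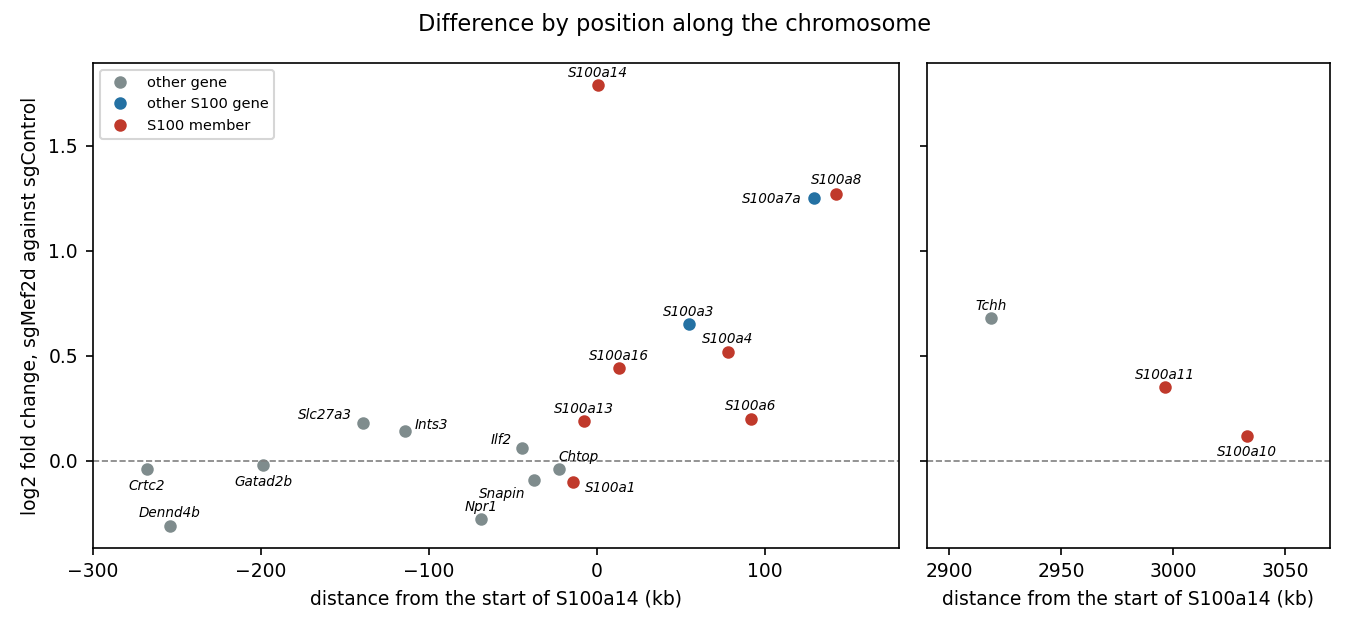
Log2 fold change (sgMef2d against sgControl) by distance in kilobases from the start of S100a14, in both stretches of chromosome 3 that hold S100 genes. Red points are the 9 members, blue points the other S100 genes analysed and grey points all other genes tested within 250 kb of a member; the grey points beside S100a1 lie between -0.31 and 0.18, and Tchh at 0.68 stands beside S100a11.

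Most other genes near the members did not pass the test. Of 10 tested genes within 250 kb of a member that are not S100 genes, 1 passed (7.95% over all genes). This was Tchh (trichohyalin, a hair follicle protein with an S100-like domain), 71.4 kb from S100a11, at 7.36, 8.15 and 7.04 CPM in sgControl and 11.9 and 12.1 CPM in sgMef2d (log2 fold change 0.68, edgeR adjusted p = 0.00637; 0.0791 and 0.0902 without sgMef2d replicates 1 and 2). Without sgControl replicate 1 the count was 2 of 10, where 29.4% of all genes passed. Without either sgMef2d library it was 0, with 1 at an unadjusted p below 0.05 beside 14.1% and 12.4% of all genes. Tchh is also the only analysed gene of 7 in the list of S100-fused proteins. The other 9 neighbours lay on the side of S100a1, with log2 values between -0.31 and 0.18. Between Mef2d and S100a1, over 2.34 Mb of the same chromosome, 4 of 76 genes tested passed with all libraries (5.26%, beside 7.95% over all genes). Of these, 4 were higher and 0 lower, beside 3.67% higher and 4.28% lower over all genes. The median log2 value of the stretch was -0.02.

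The annexins, calcium-dependent membrane-binding proteins that include partners of S100a10 and S100a11, went both ways. Of 10 tested, 1 rose and 2 fell (3 of 10, beside 7.95% over all genes), with a median log2 fold change of -0.13 beside 0.00 over all genes. The count was 6 without sgControl replicate 1, where 29.4% of all genes passed, and 2 without sgControl replicate 2, where 4.84% of all genes did. Anxa8 rose from 53.0 ± 2.83 to 81.3 ± 6.52 CPM (log2 fold change 0.62, edgeR adjusted p = 6.07e-04). Anxa6 (log2 fold change -0.36, adjusted p = 0.00308) and Anxa5 (-0.32, 0.00853) fell. Anxa2 and Anxa1, named for their known S100 partners, had log2 values of 0.13 and 0.14 and did not pass (adjusted p = 0.198 and 0.335); without sgControl replicate 1 both did, at 0.15 and 0.23 (1.66e-04 and 3.18e-08). Of the calls, that of Anxa5 was lost without sgControl replicate 2 (adjusted p = 0.0507) and without sgMef2d replicate 1 (0.144) or 2 (0.119), and that of Anxa6 without sgMef2d replicate 1 (0.0662) or 2 (0.0949).

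Of 5 cell surface receptors of S100 proteins tested, 2 fell and 0 rose, with a median of -0.35; over all genes 4.28% fell. The count was 3 without sgControl replicate 1, where 29.4% of all genes passed. It was 0 without either sgMef2d library, with 2 at an unadjusted p below 0.05 each time beside 14.1% and 12.4% of all genes. Tlr2 fell from 34.5 ± 3.18 to 23.5 ± 0.996 CPM (log2 fold change -0.55, edgeR adjusted p = 0.00554; 0.0942 and 0.0574 without sgMef2d replicates 1 and 2). Tlr4, a receptor for S100a8, fell from 24.8 ± 0.999 to 19.0 ± 0.192 CPM (log2 fold change -0.39, adjusted p = 0.0208; 0.172 and 0.213 without them). Bsg had a log2 value of 0.17 and did not pass with all libraries (adjusted p = 0.107), but did without sgControl replicate 1 (8.37e-06). Ager, which encodes RAGE, was low in both groups, at means of 0.620 and 0.765 CPM, where 3 counts correspond to 0.146 to 0.221 CPM.

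**Figure D4:**
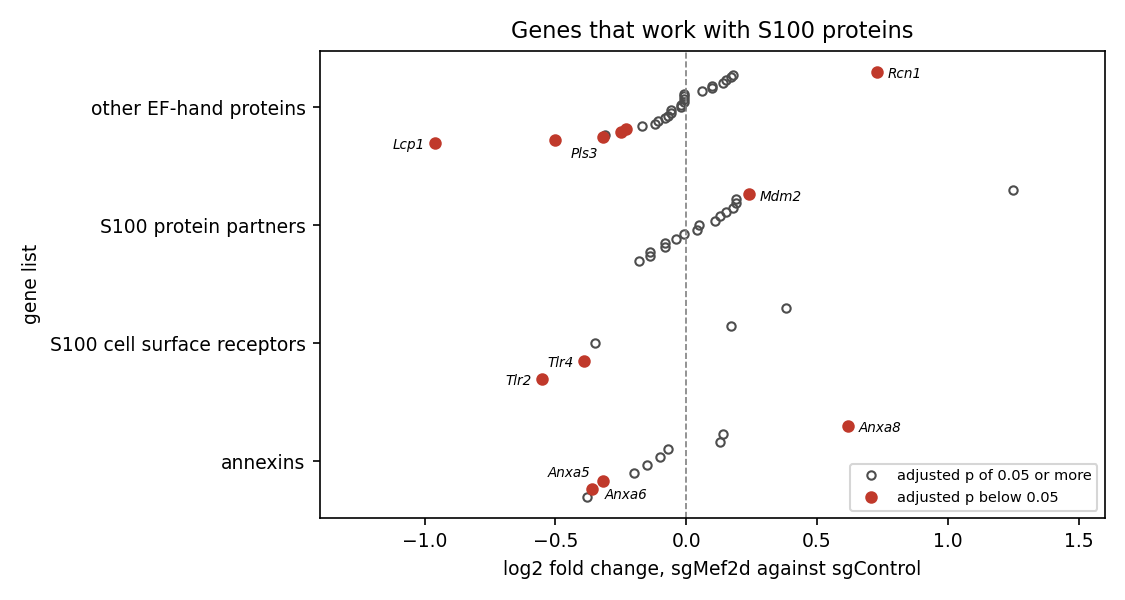
Log2 fold change (sgMef2d against sgControl) of the tested genes of 4 lists of genes that bind S100 proteins or share the EF hand; filled points passed the adjusted threshold, open points did not, and the height within a list only spreads the points. The called annexins and receptors with negative values, Anxa5, Anxa6, Tlr2 and Tlr4, lie between -0.55 and -0.32, and Lcp1 lies farthest left at -0.96.

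Among 17 intracellular or released partners of S100 proteins, 1 passed (5.88%, beside 7.95% over all genes): Mdm2, the p53 ubiquitin ligase, at a log2 fold change of 0.24 (edgeR adjusted p = 0.0480). It lost the call in 7 of 13 alternatives, among them without sgControl replicate 2 (0.0950) or 3 (0.0924) and without sgMef2d replicate 1 (0.459) or 2 (0.157). Trp53 (log2 fold change 0.19, adjusted p = 0.0635; 3.60e-04 without sgControl replicate 1) and Il1a, a cargo of S100a13 (1.25, 0.0921; 0.0291 without sgControl replicate 1), did not pass with all libraries. The median of this list was 0.05. Without sgControl replicate 1, 13 of the 17 passed, where 29.4% of all genes did, and without any other library 0 passed (1 to 4 at an unadjusted p below 0.05, beside 12.4% to 20.2% of all genes).

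Of 27 other EF-hand proteins tested, 1 rose and 5 fell (22.2% called, beside 7.95% over all genes), with a median of -0.02. The count was 12 without sgControl replicate 1, where 29.4% of all genes passed, and 1 and 0 without sgMef2d replicates 1 and 2 (7 and 6 at an unadjusted p below 0.05, beside 14.1% and 12.4% of all genes). Lcp1 (L-plastin, an actin bundler of leukocytes and some epithelial cells) fell from 10.2 ± 1.29 to 5.20 ± 0.216 CPM (log2 fold change -0.96, edgeR adjusted p = 0.00325; 0.0574 without sgMef2d replicate 2). Pls3, a related plastin, fell (-0.32, adjusted p = 0.00657; 0.0662 and 0.194 without sgMef2d replicates 1 and 2). Rcn1, a calcium-binding protein of the endoplasmic reticulum, rose (0.73, adjusted p = 0.0101; 0.170 and 0.0506 without them).

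The genes whose pattern over the 5 libraries was most like that of S100a14 were Vegfd, Cwh43, Adora2b, Afp and Prl2c2, with root mean square differences of 0.119, 0.140, 0.143, 0.184 and 0.187 in centred log2 CPM. They were picked for this likeness, so their differences are a description. Vegfd, a lymphangiogenic growth factor, had 17, 11 and 8 counts in sgControl and 42 and 37 in sgMef2d. Afp, the fetal serum protein alpha-fetoprotein, had 32, 19 and 17 counts in sgControl and 68 and 69 in sgMef2d. All 5 were far less abundant than S100a14, with sgMef2d means between 1.06 and 9.13 CPM, and Prl2c2 belongs to a family of near-identical genes, so its counts are uncertain.

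The summed level of 4 analysed myoepithelial markers was 456 to 461 CPM in sgControl and 899.9 to 956 CPM in sgMef2d. Of the 4, 2 were higher and 1 lower (beside 3.67% higher and 4.28% lower over all genes). Like S100a14 and the members that rose, the sum was higher in sgMef2d. Within sgControl it hardly varied, whereas S100a14 ran from 9.31 to 14.2 CPM. The part of the summed marker level in these genes was not tested. Most of that level was Krt14, a basal keratin, at 439 and 902 CPM, and Krt5, its basal partner, measured 0.146, 0 and 0.0733 CPM in sgControl and 15.3 and 14.2 CPM in sgMef2d (edgeR adjusted p = 3.88e-08). The contractile markers were lower: Acta2 fell from 18.6 to 10.6 CPM (log2 fold change -0.81, adjusted p = 0.00237), and Tagln, at 1.06 and 0.543 CPM, did not pass (0.172). No endothelial marker of 6 was analysed, and the 1 muscle marker of 8 measured 1.37 to 2.35 CPM in sgControl and 0.883 to 0.943 CPM in sgMef2d.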

How the data were processed

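RNA of 5 EpH4 libraries was analysed (3 sgControl, 2 sgMef2d), grouped by the treatment in their labels. The authors aligned reads with STAR2 to GRCm38, used FASTQC and RSeQC for quality, and deposited raw gene counts; the submitters' processing notes also name CASAVA and Subread. The methods give GENCODE version 22, whereas 12934 of 12934 identifiers matched GENCODE M21 with versions dropped, 12811 of them in the same version. Every deposited gene reached 11 counts in a library, so low genes had been removed beforehand. Of the per-sample columns 0 were unused, and 0 entries lacked a gene name.

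Counts were normalized by TMM and tested with edgeR 4.0.16 (quasi-likelihood, bias-adjusted form, R 4.3.3) after its expression filter by group, which left 12483 genes; p-values were adjusted over all of them by Benjamini-Hochberg, with a threshold of 0.05. DESeq2 1.42.0 and limma 3.58.1 were alternatives. The biological coefficient of variation was 0.0607. Log2 CPM used a prior count of 2. Totals of 13601145 to 20498563 keep counting error small for abundant genes, while it adds to the spread of low genes such as S100a8; intervals reflect the fitted counting and replicate error only, since PCR duplicates were not marked. The methods say in general that experiments were repeated independently, but the sources do not say of these libraries whether they were separate cultures, so p-values measure the spread between these libraries, which may be technical. Scripts were tested on simulated data.

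The members and lists were chosen with earlier results of these data known. Named were all members, the other S100 genes, per partner list the 3 genes with the smallest p, chromosome neighbours past the threshold, the 5 genes most like S100a14, Mef2d and marker sums; Anxa1, Anxa2, Ager and the single markers were named outside that rule, after their values were seen.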

Additional observations from a re-analysis of the deposited data

How the results depend on the processing

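All 9 members kept the sign of their log2 fold change under 13 alternatives. Leaving out 1 library moved the counts most: all genes past the threshold ranged from 234 to 3639 (992 with all libraries), the S100 genes from 0 to 7 of 8, the annexins from 1 to 6, the receptors from 0 to 3, the S100 protein partners from 0 to 13, the other EF-hand proteins from 0 to 12, the S100-fused proteins from 0 to 1 and the chromosome neighbours from 0 to 2. At an unadjusted p below 0.05 the same fits gave 1583 to 4730 of all genes, 4 to 7 S100 genes, 3 to 7 annexins, 2 to 4 receptors, 1 to 13 partners, 6 to 16 EF-hand proteins, 1 fused protein and 1 to 4 neighbours. The highest counts came without sgControl replicate 1. Where an arm had 1 library, it was assumed to vary like the other group. The partner count of 1 became 0 with no low-count filter, with DESeq2 and with limma-voom (5 in edgeR at an unadjusted p below 0.05), and the neighbour count became 2 in a window of 1000 kb. Replicate numbers did not pair the libraries: correlations of deviations lay between -0.01 and 0.01. With the replicate block 1254 genes and 4 S100 genes passed, and the log2 fold change of S100a14 was 1.66. The median transcript length was chosen as an alternative after seeing the data. The causes of these changes were not tested. Only 2 sgMef2d libraries limit every comparison, and depth limits S100a8, S100a3, S100a7a and the genes most like S100a14.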
